A study of Mus musculus with 16 samples.

Results

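The enzymes of pyrimidine synthesis and salvage were followed as messenger RNA in mouse bone marrow-derived monocytes. They were taken as the rows of the count table that carry 10 gene symbols, which makes 10 of 50508 genes: Cad, Dhodh, Umps, Ctps and Ctps2 of synthesis, Upp1, Uck1 and Uck2 of uridine use, and the deaminases Cda and Dctd. Cells of 4 wild-type animals were held with the growth factor M-CSF in every group and were exposed for 24 h to PFM037 with tumour necrosis factor (PFM037+TNF), to TNF, to PFM037 or to vehicle. PFM037 is a compound known here only by its code name, and its dose is not given in the sources used here. Each animal gave 1 library to every group, so that there are 16 libraries in 4 groups of 4. Library totals ran from 9403232 to 21017905 counts, and the lowest and the highest both belong to the TNF group. Levels are given as CPM, counts set to a common library size after scaling by TMM, a correction for library composition.

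Pyrimidine nucleotides are made de novo from glutamine, bicarbonate and aspartate, or are salvaged from uridine and cytidine. CAD carries out the opening steps of the de novo route, DHODH in the mitochondrion oxidizes dihydroorotate to orotate, and UMPS turns orotate into UMP, the parent of the other pyrimidine nucleotides. Uridine can be phosphorylated back to UMP by the uridine-cytidine kinases, or split by uridine phosphorylase into uracil and a ribose phosphate that can enter central carbon metabolism. Dividing cells rely strongly on the de novo route, and M-CSF is a mitogen for cells of the monocyte lineage.

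The labelled cell type was set against its markers. All 10 monocyte and macrophage markers (among them Csf1r, Itgam and Lyz2) were measured, with a summed level of 35671 to 42890 CPM in PFM037+TNF, 37128 to 44922 CPM in TNF, 23946 to 34547 CPM in PFM037 and 26700.5 to 36707 CPM in vehicle libraries. Neutrophil-lineage markers summed to 7385 to 19588 CPM over the 16 libraries, erythroid and megakaryocyte markers to 807 to 3092 CPM, mast cell, basophil and eosinophil markers to 94.1 to 556 CPM, dendritic cell markers to 40.4 to 110 CPM, stromal and endothelial markers to 38.5 to 58.7 CPM, and lymphocyte markers to 4.40 to 16.8 CPM. No marker on these lists was at 0 in every library. The libraries of animals 1 and 2 stood apart from those of animals 3 and 4: 14 interferon-stimulated genes summed to 203 to 743 CPM in the 8 libraries of animals 1 and 2 and to 1868 to 2718 CPM in those of animals 3 and 4. Values are therefore given by animal, and each test was run without and with the animal as a block.

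Transcript levels per exon length spread over a wide range. In vehicle libraries Umps stood at 20.98 and Ctps2 at 20.97 CPM per kilobase, followed by Uck2 at 19.0, Ctps at 10.4, Cad at 7.25, Uck1 at 5.73, Dhodh at 2.18, Upp1 at 2.03, Dctd at 1.31 and Cda at 0.0736 CPM per kilobase. Most neighbours in this order had overlapping ranges over the 4 libraries, and only Uck1 with Dhodh and Dctd with Cda did not overlap. The place of Upp1 changed most between groups. It was 6th of 10 in PFM037+TNF libraries at 6.63 ± 1.63 CPM per kilobase, 4th in TNF at 10.5 ± 4.52, 9th in PFM037 at 1.47 ± 0.551 and 8th in vehicle at 2.03 ± 0.860 CPM per kilobase (SD, n = 4 each).

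**Figure D1:**
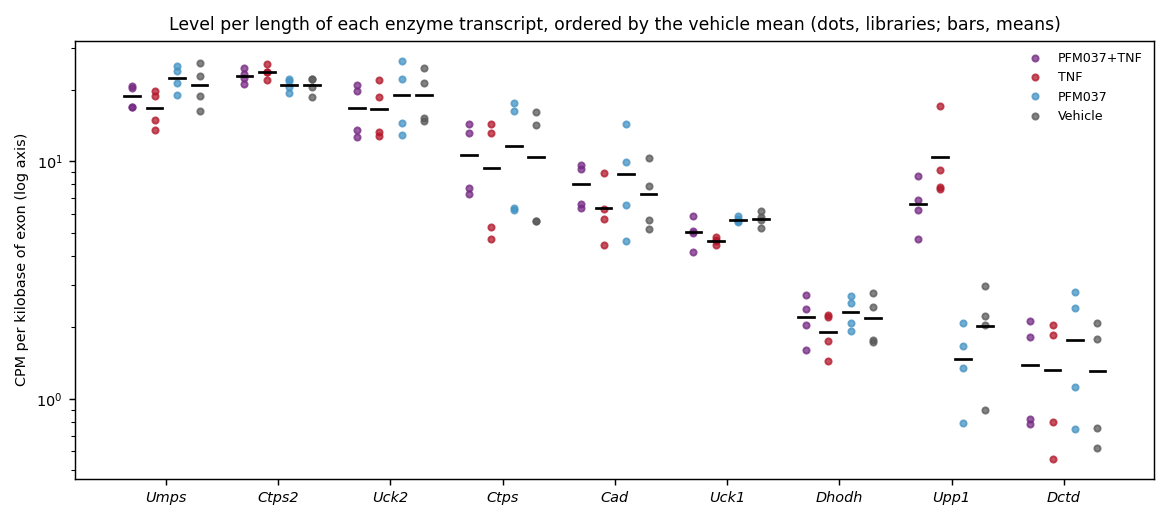
Level of 9 enzyme transcripts as CPM per kilobase of exon (log axis), with a dot for each library, a bar for each group mean and the groups PFM037+TNF, TNF, PFM037 and vehicle side by side. Cda, at a mean of 0.0736 CPM per kilobase or less in every group, is left out. Upp1 is the transcript whose groups lie farthest apart.

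Upp1 encodes uridine phosphorylase, the enzyme that cleaves uridine. It lies on chromosome 11 at 9118103 to 9136170 (GRCm38, plus strand). In PFM037+TNF libraries it had 16.96, 12.3, 9.24 and 13.5 CPM in animals 1 to 4, in TNF libraries 33.6, 15.3, 18.1 and 15.0 CPM, in PFM037 libraries 2.63, 1.54, 4.10 and 3.28 CPM, and in vehicle libraries 4.01, 1.75, 5.83 and 4.36 CPM. Every library that received TNF was above every library that did not. These levels rest on 134 to 688 reads per library in both TNF-treated groups and on 28 to 114 reads in the groups without TNF.

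The stretch before the Upp1 start is shown because, of the 9 enzymes searched, only Upp1 matched any of the motifs. No upstream window was at hand for Dhodh, so it was not searched. It is the 250 bases upstream of the outermost of 3 annotated Upp1 starts in RefSeq (GRCm38.p6, chr11:9117758-9118007, plus strand), with the match in capitals.

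Upp1 upstream window: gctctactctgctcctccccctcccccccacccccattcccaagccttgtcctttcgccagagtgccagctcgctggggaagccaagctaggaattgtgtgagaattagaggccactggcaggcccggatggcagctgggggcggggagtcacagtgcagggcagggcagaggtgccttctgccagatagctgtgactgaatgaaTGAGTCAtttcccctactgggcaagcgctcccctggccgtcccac

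The capitals are TGAGTCA, a match to the AP-1 motif TGANTCA, 39 to 45 bases before this start and 134 to 140 bases before the next annotated one. Motifs were searched on both strands in 17 such windows of 9 enzymes. The AP-1 motif was in 2 of the 17 windows, both of Upp1 and holding the same site. The cAMP response element TGACGTCA, the E-box CACGTG and an NF-kB consensus were in none. Of all 32851 windows of this length, 6.75% held the AP-1 motif, 1.55% the cAMP response element, 6.02% the E-box and 3.9% the NF-kB consensus. These are matches of letters and do not show binding.

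TNF against vehicle asks how the cytokine alone changed the enzymes. Upp1 rose: it averaged 20.5 ± 8.86 CPM in TNF libraries and 3.99 ± 1.69 CPM in vehicle libraries (SD, n = 4 each), a log2 change of 2.37 (SE 0.37, 5.16-fold, adjusted p = 0.00234, edgeR quasi-likelihood test). The log2 difference was 3.03, 3.04, 1.61 and 1.75 in animals 1 to 4, so Upp1 was higher in 4 of 4 animals and further apart in the first pair. With the animal as a block the change was 2.38 (SE 0.26, adjusted p = 1.02e-05). Upp1 was the 1 member called higher and 0 of the 9 tested were called lower, where 2.68% of all 13856 genes tested were called, 1.8% higher and 0.88% lower. With the block 2 members were called higher (Upp1 and Ctps2) and 2 lower (Umps and Uck1), 4 of 9 in all, beside 19.4% of all genes, 9.59% higher and 9.84% lower. The median log2 change of the 9 members was -0.19, and that of all genes was -0.02. The monocyte marker sums given above were higher in TNF than in vehicle libraries without overlap, and the summed 18 cell cycle markers were lower, at 1417 to 1952 CPM in TNF libraries and 1721 to 2652 CPM in vehicle libraries. Of these 18 markers 0 were called without the block and 14 were called lower with it. Of the 10 monocyte markers 5 were called higher and 2 lower with the block. Neutrophil-lineage sums were lower with TNF in 4 of 4 animals, at 7385 to 11792 CPM in TNF libraries and 8354 to 17789 CPM in vehicle libraries, and 3 of 8 markers were called lower with the block. Dendritic cell marker sums were 106, 110, 43.3 and 40.4 CPM in TNF libraries of animals 1 to 4 and 45.9, 51.3, 49.8 and 56.1 CPM in vehicle libraries. They were higher in animals 1 and 2, where the Upp1 difference was larger, and lower in animals 3 and 4. In animal 2 Upp1 was at 1.75 CPM with vehicle, its lowest there, and at 15.3 CPM with TNF, beside 18.1 and 15.0 CPM in animals 3 and 4. Of 5 tested dendritic cell markers 1 was called higher and 1 lower with the block, and 0 higher and 1 lower without it. The part of these marker changes in the changes of the enzymes was not tested. In bulk samples fewer cells of a type and less RNA per cell cannot be told apart.

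The uridine-cytidine kinases, which phosphorylate uridine and cytidine, had lower values with TNF. Uck1 (chromosome 2, 32255002 to 32260159, minus strand) had 12.7, 12.8, 13.2 and 12.2 CPM in TNF libraries of animals 1 to 4, against 14.4, 17.1, 16.0 and 15.6 CPM in vehicle libraries. The TNF libraries were all below the vehicle libraries. The log2 change was -0.31 (SE 0.11, adjusted p = 0.171) without the block and -0.31 (SE 0.10, adjusted p = 0.0356) with it. That call rested on all 4 animals: leaving out animal 1, 2, 3 or 4 gave a blocked adjusted p of 0.0530, 0.168, 0.0873 or 0.128. A processed pseudogene, Gm4482, matches 742 bases of Uck1 transcript at 99.3% identity, so some Uck1 reads cannot be placed with certainty.

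Uck2, the more abundant kinase here, had 101, 121, 72.8 and 69.7 CPM in TNF libraries and 116, 136, 83.2 and 80.9 CPM in vehicle libraries. It was lower with TNF in 4 of 4 animals by 0.20, 0.17, 0.19 and 0.22 on the log2 scale, while the libraries of the groups overlapped because the animals differed more than that. The blocked change was -0.19 (SE 0.07, adjusted p = 0.0706), and without the block it was -0.19 (SE 0.26, adjusted p = 0.838). With library size alone in place of TMM the blocked change was -0.25 and passed the threshold (adjusted p = 0.0233). A noncoding gene on the opposite strand, Gm2453, shares 150 bases of exon with Uck2.

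Among the de novo enzymes Umps was called, in the fit with the block alone. Umps, which makes UMP (chromosome 16, 33954782 to 33967038, minus strand), had 65.5, 68.6, 47.3 and 52.2 CPM in TNF libraries of animals 1 to 4, against 79.9, 90.0, 57.0 and 65.4 CPM in vehicle libraries. It was lower in 4 of 4 animals, while the ranges of the groups overlapped. The log2 change was -0.32 (SE 0.15, adjusted p = 0.391) without the block and -0.32 (SE 0.06, adjusted p = 0.00213) with it. The blocked call held when any animal was left out, with an adjusted p of 0.00561 to 0.0310. An antisense gene, Gm15829, shares 213 bases of exon with Umps, and the strand setting of the counting is not given in the sources used here.

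Cad and Dhodh did not pass the test with TNF. Cad averaged 51.9 ± 15.3 CPM in TNF libraries and 59.3 ± 19.2 CPM in vehicle libraries, with a blocked log2 change of -0.19 (95% interval -0.43 to 0.052, adjusted p = 0.27). It was lower in animals 1, 2 and 3 and differed by 0.01 in animal 4. Dhodh averaged 12.1 ± 2.47 CPM in TNF libraries and 13.8 ± 3.25 CPM in vehicle libraries (SD, n = 4 each). It was lower in 4 of 4 animals, and its change with the block was -0.19 on the log2 scale (95% interval -0.38 to -0.00032, adjusted p = 0.152).

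CTP synthase, which converts UTP to CTP with glutamine as nitrogen donor, is encoded by Ctps and Ctps2, of which Ctps2 was called with the block. Ctps2 (chromosome X, 162901238 to 163032508, plus strand) had 112, 104, 112 and 121 CPM in TNF libraries of animals 1 to 4, against 97.0, 88.2, 105 and 105 CPM in vehicle libraries. It was higher in 4 of 4 animals. The log2 change was 0.18 (SE 0.08, adjusted p = 0.36) without the block and 0.18 (SE 0.05, adjusted p = 0.0189) with it. The blocked call was kept without animal 3 (adjusted p = 0.0478) and lost without animal 1, 2 or 4 (adjusted p = 0.0891, 0.0891 and 0.104), and it was also lost with library size alone in place of TMM (log2 change 0.13, adjusted p = 0.0914).

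Ctps had 43.7, 47.7, 15.6 and 17.5 CPM in TNF libraries, against 47.2, 53.8, 18.5 and 18.5 CPM in vehicle libraries, with a blocked log2 change of -0.14 (95% interval -0.37 to 0.08, adjusted p = 0.375). It was lower in animals 3 and 4 than in animals 1 and 2 in both groups. A pseudogene, Gm18699, matches 243 bases of Ctps transcript at 96.7% identity.

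The deaminases gave no change with TNF that passed the test. Dctd, which turns dCMP into dUMP for thymidylate synthesis, had 6.35, 7.00, 2.72 and 1.90 CPM in TNF libraries and 6.09, 7.11, 2.56 and 2.11 CPM in vehicle libraries (blocked log2 change 0.01, 95% interval -0.29 to 0.31, adjusted p = 0.963). Cda, cytidine deaminase, was near the limit of detection. Its 4 libraries together held 3 reads in PFM037+TNF, 3 in TNF, 4 in PFM037 and 6 in vehicle, and single libraries held 0 to 4. It did not pass the filter on low counts and was not tested.

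**Figure D2:**
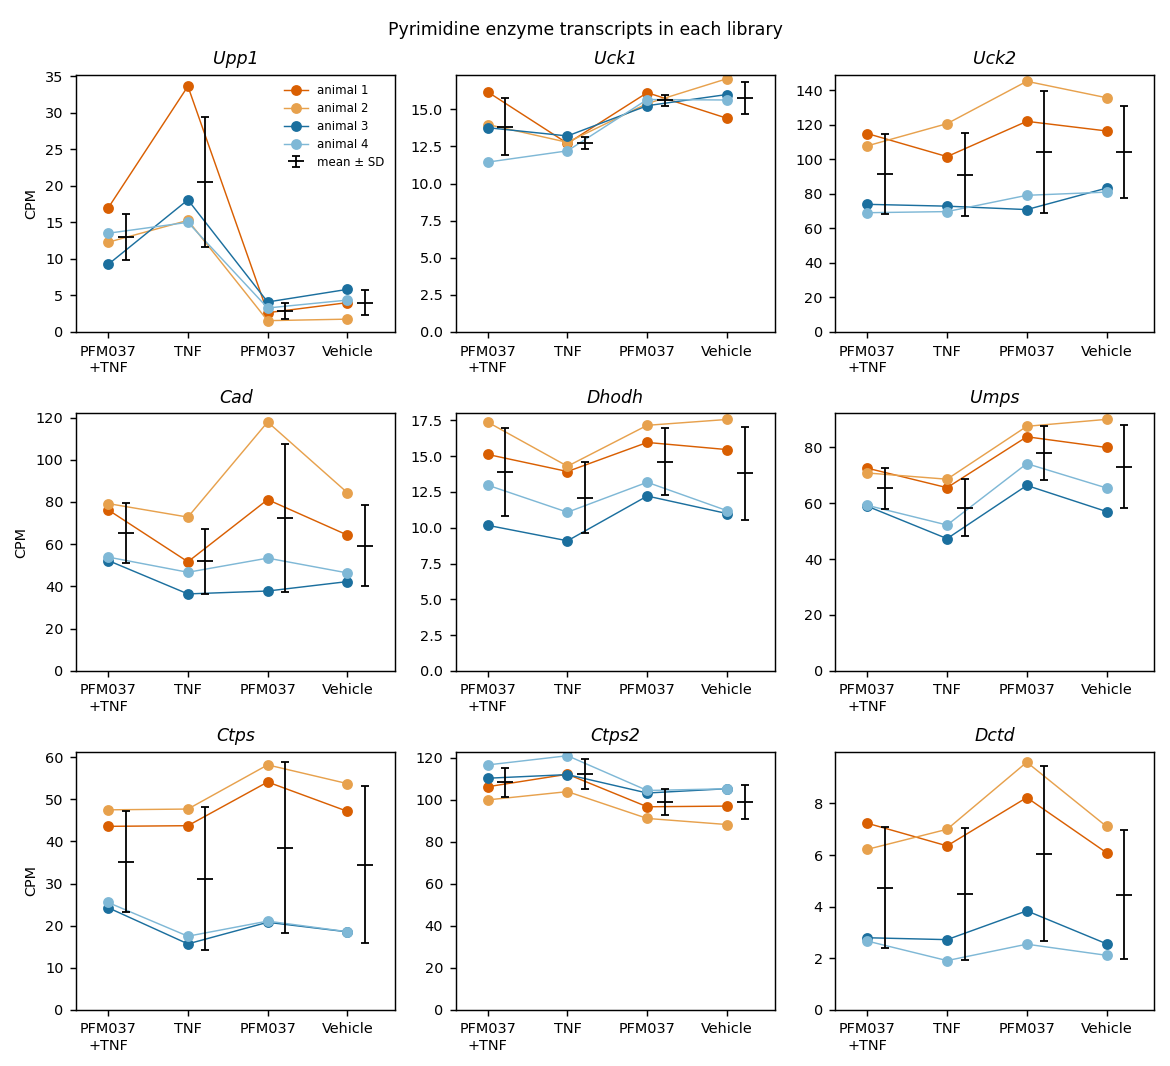
CPM of each tested enzyme in every library, with the groups PFM037+TNF, TNF, PFM037 and vehicle from left to right, lines joining the libraries of an animal, and black bars for the mean ± SD (n = 4 per group). Upp1 is at 9.24 to 33.6 CPM in the groups with TNF and at 1.54 to 5.83 CPM in the groups without it, and Ctps, Dctd and Uck2 separate by animal in every group.

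PFM037 against vehicle asks what the compound did to the enzymes by itself. Neither fit called any member: 0 of 9 without the block, where 0% of all genes were called, and 0 of 9 with the block, beside 0.0794%. At an unadjusted p under 0.05 the fit without the block had 0 members and 223 genes in all, and the fit with the block had 2 members (Dctd and Cad) and 1195 genes. DESeq2 and limma-voom called 0 members as well. Upp1 averaged 2.89 ± 1.08 CPM in PFM037 libraries and 3.99 ± 1.69 CPM in vehicle libraries (SD, n = 4 each). It was lower in 4 of 4 animals, by 0.59, 0.17, 0.49 and 0.40 on the log2 scale, with a blocked change of -0.48 (95% interval -1.14 to 0.18, adjusted p = 0.739).

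Dctd was higher in 4 of 4 animals with PFM037, at 8.23, 9.60, 3.83 and 2.54 CPM in PFM037 libraries of animals 1 to 4 and 6.09, 7.11, 2.56 and 2.11 CPM in vehicle libraries. Its blocked log2 change of 0.43 (95% interval 0.15 to 0.72) did not pass the threshold over all genes (adjusted p = 0.305). Cad averaged 72.6 ± 35.1 CPM in PFM037 libraries and 59.3 ± 19.2 CPM in vehicle libraries, and was higher in 3 of 4 animals (blocked log2 change 0.24, 95% interval 0.01 to 0.48, adjusted p = 0.566). The change without the block was 0.29. In that fit it was -0.051 without the PFM037 library of animal 2, at 118 CPM the highest for Cad. With the block and a whole animal left out, the change of Cad was 0.15 to 0.35. For the other 6 tested enzymes the blocked changes lay between -0.02 for Uck2 and 0.16 for Ctps, with Dhodh at 0.09 and Umps at 0.10. The blocked 95% interval of Ctps2 ran from -0.11 to 0.11 and that of Uck1 from -0.21 to 0.19.

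PFM037+TNF against TNF asks whether the compound altered the enzymes in cells that also received the cytokine. No member was called, 0 of 9 without the block (0% of all genes) and 0 of 9 with it (1.36% of all genes), and DESeq2 and limma-voom called 0 too. Unadjusted p was under 0.05 for 0 members and 515 genes in the fit without the block, and for 5 members (Cad, Upp1, Umps, Ctps and Dhodh) and 2132 genes in the fit with it. Upp1 averaged 13.0 ± 3.20 CPM in PFM037+TNF libraries and 20.5 ± 8.86 CPM in TNF libraries (SD, n = 4 each). It was lower in 4 of 4 animals, by 0.98, 0.31, 0.96 and 0.15 on the log2 scale. The blocked change was -0.63 (95% interval -1.13 to -0.13), which did not pass the threshold over all genes (adjusted p = 0.205).

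Cad, Umps and Dhodh of the de novo route had higher values in this comparison without passing the test. Cad had 76.3, 79.3, 52.3 and 53.9 CPM in PFM037+TNF libraries of animals 1 to 4, against 51.7, 72.8, 36.4 and 46.7 CPM in TNF libraries, and was higher in 4 of 4 animals (blocked log2 change 0.36, 95% interval 0.12 to 0.60, adjusted p = 0.129). Umps (0.17, adjusted p = 0.208) and Dhodh (0.20, adjusted p = 0.298) were also higher in 4 of 4 animals by their blocked log2 changes. Ctps was at 43.6, 47.5, 24.2 and 25.5 CPM in PFM037+TNF libraries and 43.7, 47.7, 15.6 and 17.5 CPM in TNF libraries. The difference of Ctps was thus 0.63 and 0.54 on the log2 scale in animals 3 and 4, and -0.01 in both animals 1 and 2 (blocked log2 change 0.27, adjusted p = 0.235). The blocked changes of Uck1, Dctd, Uck2 and Ctps2 were 0.12, 0.095, 0.0085 and -0.053 on the log2 scale. The summed cell cycle markers were at 1837 to 2108 CPM in PFM037+TNF libraries and 1417 to 1952 CPM in TNF libraries, and their part in these values was not tested.

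**Figure D3:**
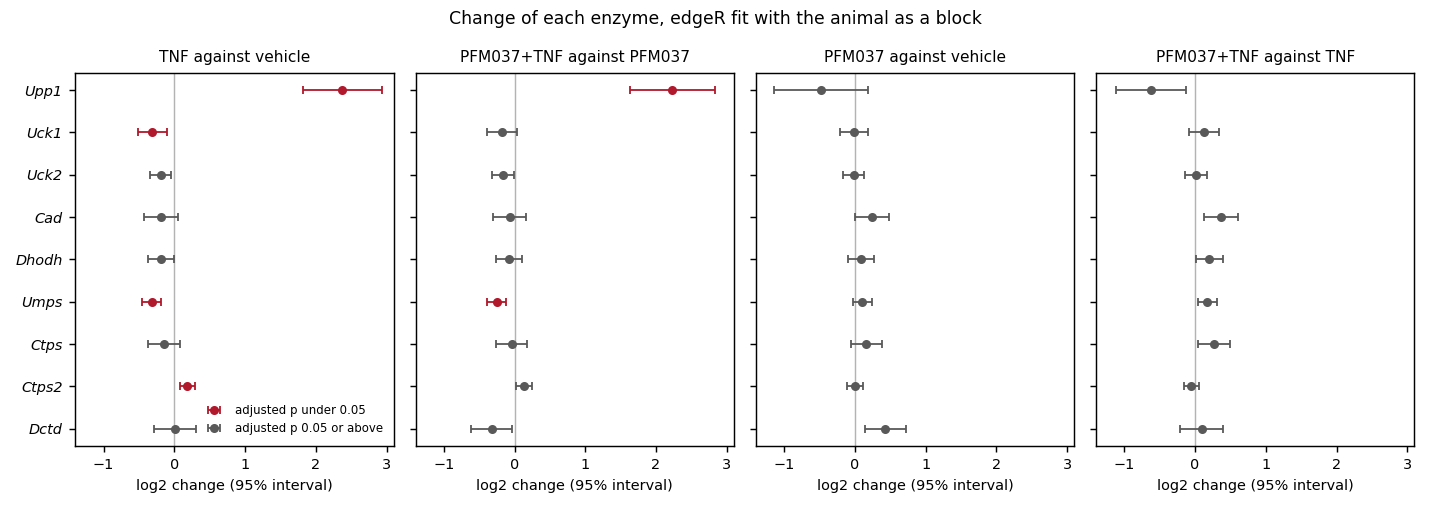
Log2 change of each tested enzyme with its 95% interval from the edgeR fit with the animal as a block, in 4 comparisons that share groups; red marks an adjusted p under 0.05. Upp1 lies at 2.38 for TNF against vehicle and 2.23 for PFM037+TNF against PFM037, and the other enzymes lie between -0.32 and 0.43 in every panel.

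PFM037+TNF against PFM037 gives the TNF change in cells that also received the compound. Upp1 averaged 13.0 ± 3.20 CPM in PFM037+TNF libraries and 2.89 ± 1.08 CPM in PFM037 libraries, and the libraries of the groups did not overlap. Its log2 change was 2.18 (SE 0.38, 4.54-fold, adjusted p = 0.00627) and was 2.63, 2.90, 1.15 and 2.00 in animals 1 to 4. It was the 1 member called, beside 2.25% of all genes. With the block Umps was called too, at 65.4 ± 7.31 CPM in PFM037+TNF libraries and 77.9 ± 9.56 CPM in PFM037 libraries (SD, n = 4 each), which makes 2 of 9 beside 20.4% of all genes. The blocked change of Umps was -0.25 (SE 0.06, adjusted p = 0.0106), lower in 4 of 4 animals, and was no longer called without animal 4 (adjusted p = 0.114). Uck1 and Ctps2 were not called here. Uck1 averaged 13.8 ± 1.93 CPM in PFM037+TNF libraries and 15.6 ± 0.386 CPM in PFM037 libraries (blocked log2 change -0.18, adjusted p = 0.21). Ctps2 averaged 108 ± 7.00 CPM in PFM037+TNF libraries and 98.9 ± 6.19 CPM in PFM037 libraries (blocked log2 change 0.13, adjusted p = 0.0832). The blocked changes of Dctd (-0.32, adjusted p = 0.101), Uck2 (-0.17, adjusted p = 0.109), Dhodh (-0.079), Cad (-0.070) and Ctps (-0.040) did not pass the threshold either.

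The interaction, which asks whether the TNF change differed in size with and without the compound, called 0 of 9 members in both fits, as it called 0% of all genes in both. An unadjusted p under 0.05 was found for 91 genes without the block and 383 with it, and for 0 members in both. For Upp1 the interaction was -0.18 on the log2 scale (SE 0.52), and with the block -0.15 with a 95% interval of -0.98 to 0.69. That interval includes a TNF response about as large with the compound as without it. It also includes one smaller by close to a log2 unit and one larger by up to 0.69. For the other 8 tested enzymes the blocked interaction lay between -0.34 for Dctd (95% interval -0.75 to 0.079) and 0.13 for Uck1, with Cad at 0.12, Dhodh at 0.11, Ctps at 0.10, Umps at 0.067, Uck2 at 0.027 and Ctps2 at -0.053.

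Cells given both agents were also set against vehicle. Upp1 averaged 13.0 ± 3.20 CPM in PFM037+TNF libraries and 3.99 ± 1.69 CPM in vehicle libraries (SD, n = 4 each), a log2 change of 1.70 (SE 0.37, 3.26-fold, adjusted p = 0.0216), and 1.75 with the block (adjusted p = 0.000195). It was the 1 member called in either fit, 1 of 9 beside 2.63% of all genes without the block and 24.8% with it. In the fit without the block this call was lost without PFM037+TNF library 1, 2 or 4 (adjusted p = 0.0569, 0.0546 and 0.0535), without vehicle library 1 or 2 (adjusted p = 0.0638 and 0.0551), and when only the PFM037+TNF and vehicle groups were fitted (adjusted p = 0.0572). The sign was positive throughout, with a log2 change of 1.45 to 1.95 over the libraries left out. The blocked changes of the enzymes not called were -0.19 for Uck2 (adjusted p = 0.0683), 0.13 for Ctps2 (adjusted p = 0.0732), -0.15 for Umps (adjusted p = 0.0989), -0.19 for Uck1, 0.17 for Cad, 0.12 for Ctps, 0.11 for Dctd and 0.0096 for Dhodh. These comparisons share groups, so their values are not independent of each other.

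Several enzymes differed between animals in every group. Ctps averaged 47.2 ± 4.94, 51.8 ± 5.16, 19.8 ± 3.64 and 20.6 ± 3.57 CPM over the 4 groups in animals 1 to 4 (SD over groups, n = 4 each). Its 8 libraries of animals 1 and 2 lay between 43.6 and 58.2 CPM and those of animals 3 and 4 between 15.6 and 25.5 CPM. Dctd likewise lay between 6.09 and 9.60 CPM in animals 1 and 2 and between 1.90 and 3.83 CPM in animals 3 and 4. Uck2 was at 101 to 145 CPM and 69.0 to 83.2 CPM in the same libraries, and Dhodh at 13.9 to 17.6 CPM and 9.09 to 13.2 CPM. These 4 transcripts did not overlap between animals 1 and 2 and animals 3 and 4, whereas those of Cad, Umps, Uck1, Ctps2 and Upp1 did. The share of all genes that separate in this way was not counted, so the separation cannot be called particular to these enzymes. Deviations from group means over all tested genes correlated at r = -0.68 to -0.41 between animals 1 or 2 and animals 3 or 4. Between animals 1 and 2, or 3 and 4, r was 0.31 to 0.61. Taking deviations from the mean of the 4 animals by itself pulls correlations between different animals below 0. The grouping of the animals was seen in the data and is not part of the design, so no test was made.

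Because Ctps varied and Ctps2 did not follow it, the balance of the CTP synthase transcripts differed by animal. Per exon length, the ratio of Ctps to Ctps2 was 0.555 to 0.909 in the libraries of animals 1 and 2 and 0.199 to 0.313 in those of animals 3 and 4. Within an animal the ratio was lower in the TNF library than in the vehicle library in each case. TNF libraries of animals 1 to 4 had 0.555, 0.653, 0.199 and 0.205, and vehicle libraries 0.692, 0.867, 0.250 and 0.251. PFM037+TNF libraries had 0.584, 0.677, 0.313 and 0.311, and PFM037 libraries 0.797, 0.909, 0.286 and 0.287. With PFM037 present the ratio was thus lower with TNF in animals 1 and 2 and higher in animals 3 and 4. The ratio of Uck1 to Uck2 was 0.211 to 0.280 in libraries of animals 1 and 2 and 0.329 to 0.428 in those of animals 3 and 4. Summed cell cycle markers ran from 1659 to 3012 CPM in animals 1 and 2 and from 1417 to 2030 CPM in animals 3 and 4, and the neutrophil-lineage markers from 10547 to 19588 CPM and from 7385 to 10064 CPM. The mast cell, basophil and eosinophil markers summed to 292 to 556 CPM in animals 1 and 2 and to 94.1 to 130 CPM in animals 3 and 4, without overlap. What part these have in the differences of Ctps, Dctd, Uck2 and Dhodh was not tested.

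**Figure D4:**
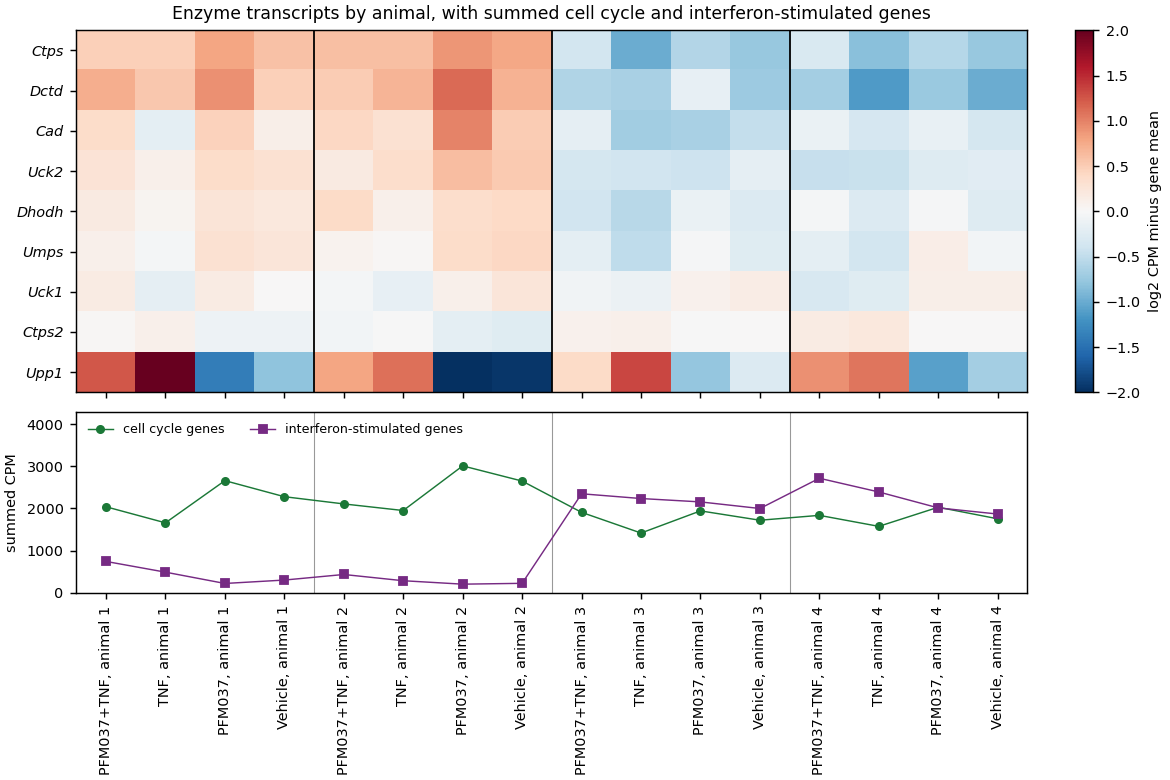
Upper panel: log2 CPM of each enzyme minus its mean over the 16 libraries, with libraries ordered by animal and the colour scale ending at 2 and -2, so that more extreme Upp1 values share the end colours. Lower panel: summed CPM of 18 cell cycle genes and 14 interferon-stimulated genes in the same libraries. Ctps, Dctd and Uck2 are above their means in every library of animals 1 and 2 and below them in every library of animals 3 and 4, whereas Upp1 follows TNF in every animal.

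The wider pathway was followed through 6 lists of genes that are not among the 10 enzymes, and without the block none of their tested genes was called in TNF against vehicle. The counts here are with the block, where 19.4% of all genes were called. In the list of thymidylate and deoxynucleotide supply 1 of 10 tested genes was called higher and 6 lower, with a median log2 change of -0.31. The smallest adjusted p belonged to Dctpp1, a dCTP pyrophosphatase, at 16.3 ± 5.57 CPM in TNF libraries and 23.5 ± 9.81 CPM in vehicle libraries (blocked log2 change -0.50, adjusted p = 0.00415), and to Dut, the dUTPase (-0.36, adjusted p = 0.00879). Thymidylate synthase Tyms (-0.34, adjusted p = 0.00931) and the ribonucleotide reductase subunit Rrm1 (-0.30, adjusted p = 0.00884) were called lower too. Rrm2b, the p53-inducible subunit of ribonucleotide reductase, was the gene called higher, at 16.0 ± 2.15 CPM in TNF libraries and 12.0 ± 1.62 CPM in vehicle libraries (blocked log2 change 0.42, adjusted p = 0.0119). Tyms, Rrm1 and Rrm2b were named after their values were seen.

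In the list of other pyrimidine salvage genes and nucleotide kinases, 0 of 12 were called with TNF. The smallest blocked adjusted p were those of Tk2, the mitochondrial thymidine kinase (-0.22, adjusted p = 0.0588), and Dtymk, thymidylate kinase (-0.23, adjusted p = 0.0684). For pyrimidine breakdown and nucleotidases 6 of 11 genes were tested, and 1, the nucleotidase Nt5c, was called lower at 52.9 ± 2.99 CPM in TNF libraries and 64.6 ± 7.47 CPM in vehicle libraries (blocked log2 change -0.29, adjusted p = 0.0133), followed by Nt5m (-0.17, adjusted p = 0.328). Upp2, the second uridine phosphorylase gene, averaged at most 0.0403 CPM in any group. Of 8 nucleoside transporters 4 were tested and 1 was called lower, the lysosomal Slc29a3 (blocked log2 change -0.22, adjusted p = 0.0312), with Slc29a1 at -0.06 (adjusted p = 0.613).

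Purine synthesis and salvage had 0 of 20 genes called higher and 4 lower with TNF, led by Aprt, adenine phosphoribosyltransferase (blocked log2 change -0.27, adjusted p = 0.0147), and Impdh2, a rate-limiting enzyme of guanine nucleotide synthesis (-0.23, adjusted p = 0.0155). Glutamine and aspartate supply had 0 of 9 called higher and 2 lower, Pycr1 of proline synthesis (blocked log2 change -0.68, adjusted p = 0.0419) and the aspartate aminotransferase Got1 (-0.20, adjusted p = 0.0451). The median blocked log2 change was -0.04 for the other salvage genes and kinases, -0.10 for breakdown, -0.06 for transporters, -0.08 for purines and -0.05 for glutamine and aspartate supply, beside -0.02 for all genes. In PFM037 against vehicle 0 genes of these lists were called in either fit. In PFM037+TNF against TNF 1 was called, with the block alone: Rrm1, at 198 ± 12.1 CPM in PFM037+TNF libraries and 158 ± 25.6 CPM in TNF libraries (SD, n = 4 each, blocked log2 change 0.34, adjusted p = 0.0407), beside 1.36% of all genes. In PFM037+TNF against PFM037 20.4% of all genes were called with the block. There the blocked fit called 3 other salvage genes and kinases higher and 3 lower of 12. It called 1 gene of thymidylate and deoxynucleotide supply higher and 4 lower of 10. Of 20 purine genes 0 were called higher and 4 lower, and of 9 for glutamine and aspartate supply 0 higher and 2 lower. For breakdown 0 of 6 tested genes were called in either direction, and for transporters 0 of 4.

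The genes whose profile over the 16 libraries was most like that of Upp1 were the chemokine receptor Ccr7, Cdc42ep2 and Slamf8, with a root mean square difference of 0.32, 0.32 and 0.34 in log2 CPM centred on each gene's mean, out of 9800 genes with a mean of at least 5 CPM. For scale, the SD of Upp1 itself over the libraries was 1.30. With TNF against vehicle these genes had log2 changes of 1.93, 1.86 and 2.12. The choice by likeness over the same libraries largely set these changes, so they are no separate evidence. Most like Cad were Mcm5, a subunit of the replicative helicase, Mybbp1a and Gemin5. Their root mean square differences were 0.14, 0.15 and 0.15, where the SD of Cad was 0.47. Their log2 changes with TNF against vehicle were -0.40, -0.11 and -0.22, beside -0.19 for Cad. Cad was higher in animals 1 and 2 than in animals 3 and 4 by a mean log2 difference of 0.74 over the groups. The part of the animals in this likeness was not tested.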

How the data were processed

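RNA was measured in 16 libraries: 4 groups of 4, with each animal once in every group. Per the labels, a stranded, poly(A)-selecting kit and single 75-base reads were used. The authors deposited 1 table of raw counts, whole numbers of reads for every gene and library. The submitters' processing notes name STAR 2.5.3a, featureCounts, limma and GRCm38, without order or settings. Which annotation release and strand setting were used to count is not stated there. Reads in overlapping genes or near-identical copies may therefore be split or lost. The members and lists were chosen with earlier results of these data known.

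The main test was edgeR 4.0.16 run under R 4.3.3 (quasi-likelihood F-test, two-sided, TMM scaling, filterByExpr with minimum count 10 and minimum total 15, which kept 13856 genes). The model held 1 mean per group over all 16 libraries, and p-values were adjusted by Benjamini-Hochberg over all tested genes, with a threshold of 0.05. "Adjusted p" and "SE" always come from these fits, and log2 differences per animal are of log2 CPM with a prior count of 2. The animal as a block is the alternative, and the pairing comes from the labels' animal identity: deviations from group means correlated at r = 0.50 to 0.78 between libraries of the same animal, whose best partner was the same animal in 45 of 48 cases. No pair of libraries of a group agreed within sampling noise (lowest chi-square per degree of freedom 6.78). The fits were also run on simulated counts that held a TNF change and no difference between animals. That run cannot check how the fits treat the animals.

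Other alternatives were DESeq2 1.42.0, limma-voom 3.58.1, DESeq2 size factors, library size alone, no filter on low counts, only the groups compared, and leaving out each library or animal. CPM per kilobase used exon lengths and coordinates from GENCODE M21 (GRCm38), and near-identical transcripts were sought with blastn 2.17.0 (at least 95% identity over at least 75 bases). Promoter windows are from RefSeq (GRCm38.p6), for 9 of the 10 enzymes, all but Dhodh. The rule names all 10 enzymes in every comparison, of which Cda could not be tested. Of each further list the 2 tested genes with the smallest adjusted p for TNF against vehicle are named, from the blocked fit where the other called none. For likeness, the 3 genes with the smallest root mean square difference from Upp1 and from Cad are named.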

Additional observations from a re-analysis of the deposited data

Results flagged for a closer look

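Of the 40 sets of 4 libraries (10 enzymes in 4 groups), 1 held a library far from the others. Upp1 in the TNF library of animal 1 was at 33.6 CPM, while the other 3 TNF libraries were at 15.0 to 18.1 CPM, so the gap to the nearest of them was 0.835 of the range, which is past Dixon's critical value at the 95% level. Chance gives such a gap in about 1 of 20 sets.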

How the results depend on the processing

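Changes of the 9 tested enzymes were recomputed under 1143 alternatives over 54 changes. Of these, 135 turned the sign, and 0 of them were of the 7 changes called with or without the animal as a block. In TNF against vehicle 1 member was called, 4 with the animal as a block, 4 with library size alone and the block, and 1 to 3 when a library or animal was left out. In PFM037+TNF against PFM037 1 was called, 2 with the block, 4 with library size alone and the block (adding Uck2 and Dctd, both lower), and 1 to 3 with a library or animal left out. In PFM037+TNF against vehicle 1 was called, 3 with library size alone and the block (adding Uck2 and Umps, both lower), 0 with only the groups compared, and 0 to 2 with a library or animal left out. The causes were not tested, except that fewer libraries remain when some are left out. Neither PFM037 comparison nor the interaction gained a member under any alternative. Dctd in TNF against vehicle (0.033) became -0.028 with library size alone and -0.049 with the block added.

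At least 1 alternative turned the sign of 26 of the 54 changes. The ranges of some of these are given first with a library left out of the fit without the block. In TNF against vehicle they were -0.40 to 0.027 for Cad, -0.42 to 0.16 for Ctps and -0.25 to 0.35 for Dctd on the log2 scale. They were -0.051 to 0.51 for Cad in PFM037 against vehicle, -0.054 to 0.45 for Ctps in PFM037+TNF against TNF, and -0.43 to 0.16 for Upp1 in the interaction. With an animal left out of the blocked fit, these ranges were narrower. In the same order they were -0.24 to -0.14, -0.16 to -0.13, -0.025 to 0.045, 0.15 to 0.35, 0.15 to 0.37 and -0.23 to -0.033. With a library left out without the block, Ctps in PFM037 against vehicle ranged from -0.11 to 0.46. Cad in PFM037+TNF against PFM037 then ranged from -0.38 to 0.17 and Dctd in PFM037+TNF against TNF from -0.24 to 0.32. With an animal left out of the blocked fit these were 0.15 to 0.18, -0.25 to 0.11 and 0.016 to 0.21. Few reads were counted for Cda, 0 to 4 per library, and for Dctd, 17 to 174. For Dctd in TNF against vehicle the SE was 0.53 without the block and 0.14 with it. The part of read depth in this was not tested.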
